A study of Mus musculus with 2 samples.

Results

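The oligoadenylate synthetase family was followed here through 6 mouse genes, Oas1a, Oas1g, Oas2, Oas3, Oasl1 and Oasl2, taken by their symbols from the 32432 genes of the count matrices. Leukocytes were sorted from B16-F10 tumours, a transplanted mouse melanoma, and their mRNA was counted cell by cell as unique molecular identifiers (UMIs). Male mice of 8 to 12 weeks received 1000 B16-F10 cells in Matrigel in the skin of both legs on day 0. From day 5 they were given 1 mg of tamoxifen on each of 3 days, and tumours were taken on day 14. The 4 Trex1 iKO samples carried Trex1 fl/fl with R26CreERT2-ki/wt, a Cre recombinase under the ubiquitous Rosa26 locus that tamoxifen activates. The 4 Trex1 control samples carried Trex1 wt/fl with the same R26CreERT2-ki/wt allele and received the same tamoxifen. The control is therefore a heterozygote for the floxed allele in which Cre is also active, and the injected tumour cells were not of the hosts' genotype. Each genotype was run as 1 pool of 4 hashtagged samples, so an effect of genotype cannot be told apart from one of the pool, and the labels do not state that each hashtag was 1 mouse. The p-values measure the spread between hashtagged samples.

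Oligoadenylate synthetases bind double-stranded RNA and make short oligoadenylates, which act as a second messenger in the antiviral response. Type I interferons induce their genes, and the family is widely used as a readout of interferon exposure. Oas1a and Oas1g are close copies with synthetase activity. Oas2 and Oas3 are larger synthetases built from repeated units. Oasl2 keeps synthetase activity, whereas Oasl1 lacks it and is known as a repressor of Irf7. Trex1 is an exonuclease that clears DNA from the cytosol, and its loss is known to raise interferon production.

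After filters, 22052 of 23731 barcodes remained, with a median of 6405 to 14491 UMIs per cell by sample and 1294 to 5722 cells per sample. Trex1 gave 2 UMIs over all 8 samples, so its deletion could not be checked in these matrices. The sort label names lymphocytes, but monocyte, macrophage, neutrophil and dendritic cell markers were present in every sample, and 24.0% to 55.5% of cells were monocyte/macrophage-like. No barcode was shared within a pool. The mix of classes differed: neutrophil-like cells were 1.45% to 6.35% of iKO and 10.4% to 21.6% of control cells. CD8 T-like cells were 32.4% and 42.7% in iKO 1 and 2, 11.2% and 8.7% in iKO 3 and 4, and 3.22% to 21.3% in the controls. The fibroblast genes Col1a1, Col1a2 and Dcn reached at most 1.14 CPM (UMIs of a gene per 1000000 UMIs of the profile). Of the endothelial genes, Pecam1, which leukocytes also express, stood at 9.11 to 28.6, Cdh5 at 0.554 to 2.80, and Kdr at 7.47 to 18 CPM in iKO and 2.03 to 6.74 in control. The melanoma genes Mlana, Pmel, Dct and Tyrp1 stood at 0.651 to 9.31 CPM, against 576 to 1030 for Ptprc, which encodes CD45. Mlana (1.40 to 8.57 in iKO, 1.02 to 1.37 in control), Dct (5.21 to 9.31, 2.22 to 5.00) and Kdr were higher in iKO without overlap, and their part in the whole-sample results was not tested.

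The 6 genes lie on chromosome 5 in 2 clusters. In RefSeq on GRCm38.p6, Oasl2 (114896926 to 114912245) neighbours Oasl1 (114923143 to 114937911). Oas2 (120730333 to 120749886), Oas3 (120753098 to 120777684), Oas1g (120876142 to 120887613) and Oas1a (120896256 to 120907544) lie together, with the other Oas1 genes between Oas3 and Oas1a and beyond it. RefSeq promoters, 250 bases before to 50 bases after a start site, were found for 5 of the 6 genes, not for Oas2. The interferon-stimulated response element, searched on both strands as 2 GAAA words with any 2 bases between them, was in 3 of these 5 and in 3.44% of 32851 promoters. The 3 promoters are printed because they carry that element, shown in capitals.

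Oas1a: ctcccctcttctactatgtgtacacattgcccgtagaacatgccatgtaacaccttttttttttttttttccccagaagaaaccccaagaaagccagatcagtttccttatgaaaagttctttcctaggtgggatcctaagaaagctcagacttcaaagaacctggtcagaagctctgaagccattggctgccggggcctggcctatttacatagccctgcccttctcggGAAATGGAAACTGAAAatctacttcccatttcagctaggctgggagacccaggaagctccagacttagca
Oas1g: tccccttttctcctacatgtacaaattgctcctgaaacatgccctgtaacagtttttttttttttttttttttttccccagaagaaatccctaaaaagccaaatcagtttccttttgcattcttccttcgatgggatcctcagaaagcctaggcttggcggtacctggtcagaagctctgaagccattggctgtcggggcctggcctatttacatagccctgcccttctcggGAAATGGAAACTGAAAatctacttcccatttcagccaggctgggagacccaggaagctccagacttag
Oas3: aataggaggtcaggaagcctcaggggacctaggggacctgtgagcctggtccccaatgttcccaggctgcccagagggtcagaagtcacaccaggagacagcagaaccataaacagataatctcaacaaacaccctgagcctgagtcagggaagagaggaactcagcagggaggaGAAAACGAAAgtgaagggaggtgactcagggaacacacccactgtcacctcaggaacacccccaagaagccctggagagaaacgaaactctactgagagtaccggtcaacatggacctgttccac

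The Oas1a window is chr5:120907476-120907775, minus strand, with 2 overlapping matches that begin 20 and 14 bases before the start site. The Oas1g window, chr5:120887564-120887863, minus strand, holds the same run of letters with matches beginning 18 and 12 bases before the start. In the Oas3 window, chr5:120777610-120777909, minus strand, the single match begins 75 bases before the start. The windows of Oasl1 and Oasl2 do not hold these letters. A second motif, TTCNNNGAA, the gamma-activated sequence, was searched on both strands and was in the Oas1a window alone of the 5, and in 8.3% of all promoters.

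Oas1a and Oas1g also resemble each other at the end that this assay reads. Of the 50-base words in the last 500 transcript bases, 56.1% of those of Oas1a are also in Oas1g and 30.2% of those of Oas1g are also in Oas1a, in the GENCODE transcripts supplied for GRCm38. The split of reads between this pair is therefore uncertain. For Oas3 the share was 4.88%, and for Oas2, Oasl1 and Oasl2 it was 0.

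The first question was whether the genes differed between genotypes over all leukocytes. All 6 were higher in the Trex1 iKO samples, and for each gene the lowest iKO sample stood above the highest control. Counts were summed per sample, and 228 of 13459 genes (1.69%) were called higher in iKO by edgeR's quasi-likelihood test at an adjusted p under 0.05. The 6 members were all among them. Groups did not overlap, with iKO higher, for 8.41% of genes tested. The median log2 fold change was 2.20 over the 6 members and -0.01 over all genes tested. In such a sum, more cells with a transcript and more transcripts per cell cannot be told apart, and the mix of classes given above enters it.

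Oasl2 had the most UMIs of the family. In CPM it stood at 166, 145, 127 and 133 in iKO 1 to 4 and at 47.5, 49.1, 47.9 and 41.3 in control 1 to 4. Its controls were close together and every iKO sample stood above them, with a log2 fold change of 1.62 ± 0.10 (SE) and an adjusted p of 0.000434 in edgeR. Oasl1, the family member without synthetase activity, stood at 98.4, 92.6, 56.3 and 58.7 in iKO and at 17.98, 18.85, 14.6 and 7.71 in control. It was higher in iKO 1 and 2 than in iKO 3 and 4, and rose by 2.39 ± 0.29 on the log2 scale (edgeR, adjusted p = 0.00596).

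Of the synthetases, Oas1a stood at 94.9, 90.5, 81.9 and 89.9 CPM in iKO and at 26.1, 16.5, 17.8 and 20.4 in control, a log2 change of 2.14 ± 0.15 (edgeR, adjusted p = 0.000694). Oas1g stood at 34.4, 30.2, 30.1 and 33.4 against 7.29, 4.28, 3.75 and 4.96, a log2 change of 2.65 ± 0.20 (edgeR, adjusted p = 0.000804). Both members of this similar pair were even across the 4 iKO samples. Oas3 stood at 95.8, 89.0, 65.9 and 70.7 against 22.1, 14.6, 17.9 and 12.95, a log2 change of 2.26 ± 0.18 (edgeR, adjusted p = 0.000845). Oas2 stood at 28.4, 25.98, 25.8 and 28.7 against 11.3, 10.0, 11.1 and 10.2, a log2 change of 1.35 ± 0.09 (edgeR, adjusted p = 0.000434). Oas2 had the smallest change of the 6 and Oas1g the largest.

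**Figure D1:**
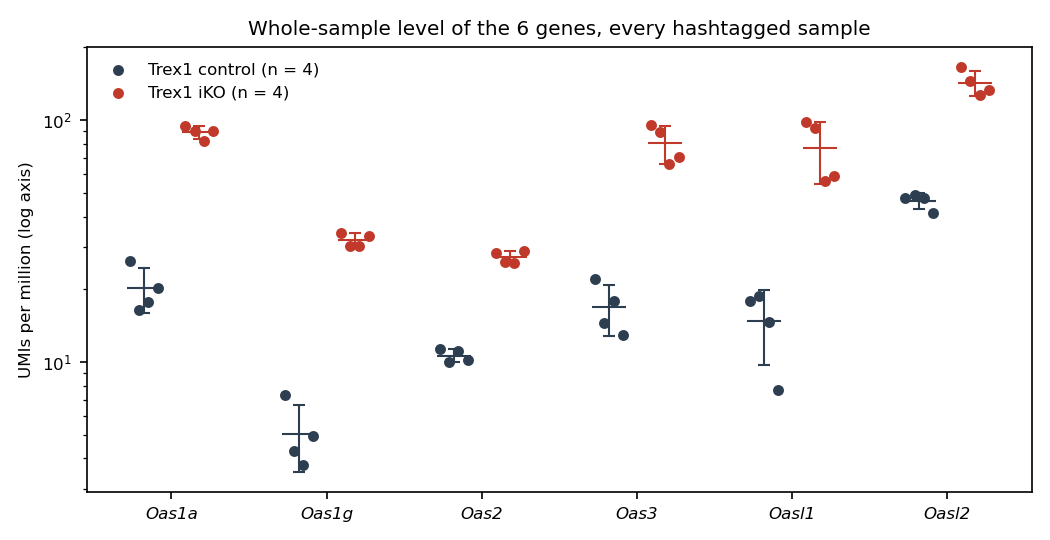
CPM, the UMIs per 1000000 (log axis), of each gene summed over all cells of a sample. Points are the 4 hashtagged samples of each genotype, the short horizontal line is their mean and the vertical line their SD. All iKO points lie above all control points for every gene, for example 127 to 166 against 41.3 to 49.1 for Oasl2.

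The genes did not rise by the same factor, so the makeup of the family's UMIs was compared next. The family summed to 387 to 518 CPM in iKO and 97.4 to 132 in control. Oasl2 held 31.9% ± 0.87 (SD, n = 4) of the family's UMIs in iKO and 41.0% ± 3.41 (SD, n = 4) in control. Oas2 held 6.14% ± 0.77 against 9.42% ± 0.90. Both shares were lower in iKO without overlap (two-sided exact permutation test over samples, p = 0.0286, the smallest that 4 against 4 allows, and 0.0429 adjusted over the 6 genes). Oas3 went from 14.7% ± 1.88 in control to 17.9% ± 0.93 in iKO, and Oas1g from 4.42% ± 1.04 to 7.22% ± 0.83, with the same exact p values. For Oas1a (17.7% ± 3.04 to 20.1% ± 1.62, exact permutation p = 0.257) and Oasl1 (12.8% ± 3.62 to 16.8% ± 2.85, exact permutation p = 0.143) the ranges overlapped. These shares also depend on which cells were present. In monocyte/macrophage-like cells alone, those of Oas1g, Oas2, Oas3 and Oasl2 differed in the same directions without overlap (exact permutation p = 0.0286 each, unadjusted). In CD8 T-like cells alone, on 219 control UMIs, the shares of Oas2, Oas3 and Oasl2 overlapped (exact permutation p values of 0.657, 0.6 and 0.114). There the share of Oas1a was 36.7% in iKO and 27.5% in control, without overlap (exact permutation p = 0.0286).

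The levels were then separated by cell class. Clusters were built without the 6 genes and without a listed set of other interferon-induced genes, and were named from marker genes. That set was not complete, since Ly6i, a gene whose level was among those most like the family's, was not in it. The 8 classes with at least 20 cells in 3 or more samples of each genotype were tested. Summed over the family, neutrophil-like cells were highest in both genotypes, at 843 ± 135 (SD, n = 4) CPM in iKO and 285 ± 65.6 in control. Monocyte/macrophage-like cells followed at 752 ± 283 and 164 ± 48.0, cDC2-like cells at 493 ± 175 and 110 ± 18.2, and mature DC-like cells at 399 ± 225 and 98.6 ± 57.2. CD4 T-like cells stood at 252 ± 72.7 and 38.4 ± 11.8, B-like cells at 178 ± 73.3 and 27.8 ± 11.6, Treg-like cells at 154 ± 56.7 and 31.0 ± 10.1, and CD8 T-like cells were lowest at 78.6 ± 11.7 and 15.0 ± 6.52. Every neighbouring pair in this order overlapped in its sample range, in both genotypes. Neutrophil-like cells (655 to 953 in iKO) and CD4 T-like cells (172 to 345) did not overlap.

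The order differed by gene. Oasl2 was highest in neutrophil-like cells, which in control stood at 113 to 198, above the 37.7 to 76.0 of monocyte/macrophage-like cells. Oas3 shared that pattern, with 39.5 to 57.2 in control neutrophil-like cells against 12.7 to 29.2. In iKO these classes overlapped for both genes, at 274 to 452 against 158 to 322 for Oasl2 and 118 to 166 against 82.7 to 176 for Oas3. Oas1a and Oas1g were instead highest in monocyte/macrophage-like cells, at 106 to 173 and 43.8 to 72.8 in iKO, and overlapped there with cDC2-like cells. Oas1g was near the detection limit in lymphoid cells, with 65 UMIs over all iKO CD8 T-like cells beside 2036 of Oas1a. Of the UMIs of the pair, Oas1g held 29.6% in iKO monocyte/macrophage-like cells (28.7% to 30.0% by sample), 3.09% in CD8 T-like cells (1.96% to 4.00%) and 2.17% in Treg-like cells (0.725% to 3.92%). The T cell classes thus had Oas1a with little Oas1g, within the limit on the split of their reads given above.

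**Figure D2:**
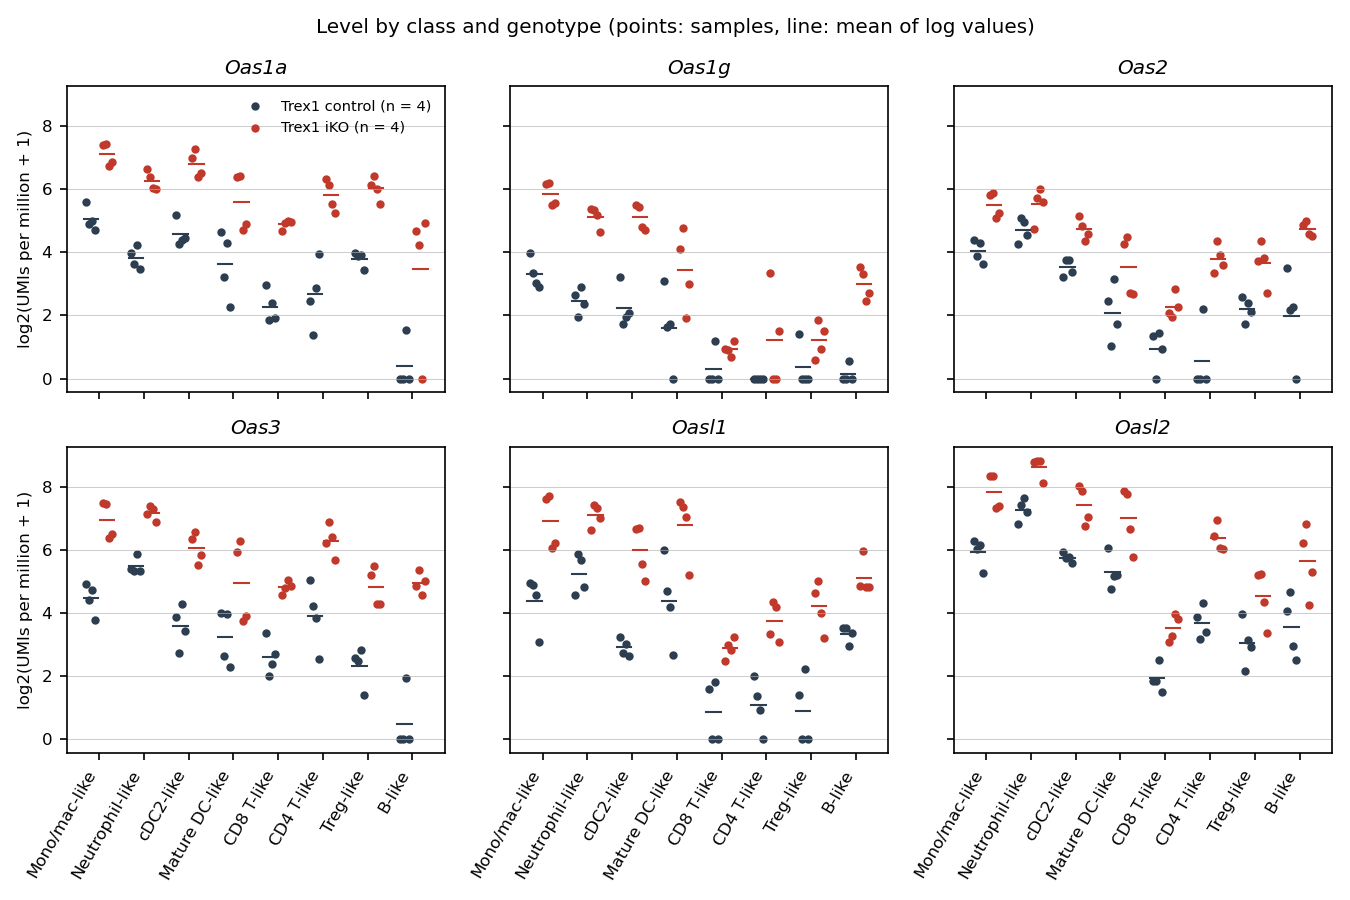
Level of each gene as log2(CPM + 1) in 8 classes. Points are hashtagged samples (4 per genotype) and lines are means of the log values. For Oas1g, the monocyte/macrophage-like, neutrophil-like and cDC2-like points of each genotype lie above all points of the 3 T cell classes of that genotype.

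In monocyte/macrophage-like cells all 6 genes were called higher in iKO, where 5.9% of 11823 genes were so called. Oas3 stood at 176, 175, 82.7 and 88.8 CPM in iKO 1 to 4 and at 29.2, 20.3, 25.6 and 12.7 in the controls. Its log2 fold change was 2.58 ± 0.35 (edgeR, adjusted p = 0.00644). Oasl1 stood at 196, 210, 65.9 and 73.8 against 29.8, 28.4, 22.7 and 7.38. Its iKO samples fell into a higher pair, iKO 1 and 2, and a lower pair, and its log2 change of 2.66 ± 0.54 had an adjusted p of 0.0185 in edgeR. That call was lost on leaving out iKO 2 (0.0505), control 2 (0.0545) or control 3 (0.0524). Oas1a (2.07 ± 0.25), Oas1g (2.64 ± 0.31), Oas2 (1.52 ± 0.25) and Oasl2 (1.95 ± 0.32) had adjusted p values of 0.00472 to 0.0106 in edgeR. Each was higher in iKO 1 and 2 than in iKO 3 and 4, as was the family sum, at 986 and 1007 against 489 and 526.

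Among cells pooled over the 4 samples of a genotype, the monocyte/macrophage-like class held its clusters in different shares in iKO and control. The cluster led by Arg1 and Inhba made up 21.0% of the class in control and 7.51% in iKO. The clusters led by Ccl12 and Ccl7 (11.4% of iKO) and by Spic and Ly6i (9.84%) made up 1.44% and 1.83% of control. These shares were not compared between samples. Samples iKO 1 and 2 gave 1864 and 2204 of the iKO cells, and control 4 gave 1325 of the control cells. The family was therefore also read within clusters. In 8 of the 12 monocyte/macrophage-like clusters at least 3 samples of each genotype had 20 cells, and in all 8 the lowest iKO sample stood above the highest control. In the Arg1 and Inhba cluster the family summed to 307 to 717 CPM in iKO and 62.8 to 191 in control. In a cluster led by Vcan, Chil3 and Cxcl10 it summed to 766 to 1416 against 187 to 273. In a cluster led by the macrophage genes Pf4, Mrc1 and Folr2 it summed to 334 to 904 against 70.9 to 276. Over all clusters that could be read this way, 16 of 19 did not overlap. The share of single genes without overlap was not computed by cluster. In the whole monocyte/macrophage-like class 14% of the genes tested did not overlap, with iKO higher. In the other classes tested that share was 2.35% to 5.7%.

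Marker gates drawn on single cells, one on Vcan and Chil3 without C1q UMIs and one on the C1q genes without Vcan or Chil3, gave a closer view of this lineage. In the monocyte gate 6 of 6 genes were called higher, where 7.51% of 9359 genes were so called, with log2 changes of 1.505 ± 0.28 (Oas2) to 3.09 ± 0.52 (Oasl1) and adjusted p values of 0.000979 to 0.00689 in edgeR. In the C1q macrophage gate 3 of 6 were called, where 0.235% of 9347 genes were so called. These were Oas1a (2.05 ± 0.24, edgeR adjusted p = 0.0145), Oas1g (2.78 ± 0.42, 0.0314) and Oas2 (1.36 ± 0.23, 0.0465). Oasl2 (1.56 ± 0.32), Oasl1 (2.26 ± 0.47) and Oas3 (2.42 ± 0.47) had adjusted p values of 0.0658, 0.0659 and 0.0573, although no iKO sample overlapped the controls for any of the 6, as for 7.44% of all genes tested in that gate. DESeq2 called all 6, with 4.56% of all genes called in either direction. The edgeR count ran from 0 to 6 when single samples were left out: it was 0 without iKO 1, control 2, control 3 or control 4, 1 without iKO 2, and 6 without iKO 3. In the first 5 of these fits 3 or 4 genes were called in all (0.0306% to 0.0431%), and without iKO 3 it was 224 (2.29%). Within each iKO sample the monocyte gate had 1.39 to 1.65 times the family level of the C1q gate, and in the controls 0.931 to 1.30 times. Whether that ratio differed between genotypes was not tested.

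Neutrophil-like cells had the highest control level, and 5 of 6 genes were called higher in iKO there, where 1.66% of 6974 genes were so called. Oasl2 stood at 435, 445, 452 and 274 CPM in iKO 1 to 4 and at 113, 172, 198 and 146 in control 1 to 4. Even iKO 4, the lowest, was above every control, and the log2 change was 1.48 ± 0.24 (edgeR, adjusted p = 0.00674). Oas1a rose from 10.1 to 17.7 in control to 63.7 to 97.9 in iKO, a log2 change of 2.59 ± 0.23 (edgeR, adjusted p = 0.000309). Oas1g (2.94 ± 0.32), Oas3 (1.82 ± 0.22) and Oasl1 (1.96 ± 0.32) were also called, with edgeR adjusted p values of 0.000634 to 0.00577. Oas2 stood at 25.9, 51.5, 63.0 and 46.9 in iKO and 18.3, 33.3, 29.8 and 22.5 in control. Its groups overlapped, and its change of 1.02 ± 0.30 had an adjusted p of 0.143 in edgeR. Neutrophil clusters differed in level: the cluster led by Retnlg, Ngp and Ly6g summed to 390 to 660 CPM for the family in control and 1076 to 1665 in iKO, and the cluster led by Hcar2 and Prok2 to 151 to 186 and 180 to 489.

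cDC2-like cells, conventional dendritic cells marked by Cd209a and Clec10a, had all 6 genes called higher, where 2.08% of 8828 genes were so called. Oasl1 stood at 100, 102, 46.2 and 31.5 in iKO and at 8.39, 5.71, 7.18 and 5.25 in control. Its log2 change of 3.45 ± 0.42 (edgeR, adjusted p = 0.00233) was the largest of any member in any class tested. The other 5 changed by 1.30 ± 0.21 (Oas2) to 3.21 ± 0.34 (Oas1g), with edgeR adjusted p values of 0.00161 to 0.0100. In mature DC-like cells, which express Ccr7 and Fscn1, 0 of the 4 genes tested were called by edgeR, where 1 of 7204 genes (0.0139%) was called higher. All 4 had an unadjusted p under 0.05 in edgeR, as had at least 856 of the 7204 genes. DESeq2 called 2 (1.22% of all genes, either direction), and edgeR called 2 without iKO 4 (0.571%). Oasl1 stood at 183, 162, 129 and 36.0 in iKO and at 63.4, 25.0, 17.1 and 5.41 in control. Its groups overlapped, since iKO 4 was below control 1, and its log2 change was 2.37 ± 0.59 (edgeR, adjusted p = 0.148). Oas1a, Oas3 and Oasl2 had changes of 1.96 to 2.17 and adjusted p values of 0.120 to 0.202, and Oas1g and Oas2 were below the count filter.

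In CD8 T-like cells the family was low but 4 of the 4 genes that passed the count filter were called higher, where 3.11% of 9353 genes were so called. Oas1a stood at 24.6, 29.1, 30.5 and 30.3 CPM in iKO and at 6.78, 2.58, 4.25 and 2.76 in control. The iKO samples were close together and the log2 change was 2.59 ± 0.24 (edgeR, adjusted p = 0.000231). Oas3 stood at 23.0, 26.9, 32.3 and 28.2 against 9.24, 3.01, 4.25 and 5.52, a log2 change of 2.15 ± 0.26 (edgeR, adjusted p = 0.00112). Here iKO 1 and 2 were not above iKO 3 and 4. Oasl2 (1.76 ± 0.31, edgeR adjusted p = 0.00791) and Oasl1 (2.11 ± 0.49, 0.0325) rose from low levels. The Oasl1 call was lost in 6 of the 8 fits that left out 1 sample, those without iKO 2, iKO 4 or any 1 control (adjusted p of 0.0505 to 0.114), and controls 2 and 4 had no Oasl1 UMI. CD8 T-like clusters differed in level, since the cluster led by Gzmk and Ccl5 summed to 135 to 280 for the family in iKO and 24.7 to 67.2 in control, against 53.3 to 60.7 and 4.56 to 12.7 in the cluster led by granzyme genes such as Gzmf. Among cells pooled over the 4 samples of a genotype, the Gzmk cluster made up 13.8% of the class in iKO and 32.6% in control. The pooled iKO cells came mostly from iKO 1 and 2 (1228 and 2442 cells, against 145 and 211 from iKO 3 and 4). This share was not compared between samples.

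CD4 T-like cells had 3 of the 3 genes tested called higher, where 2.09% of 5749 genes were so called. Oas1a rose by 3.30 ± 0.39 on the log2 scale (edgeR, adjusted p = 7.54e-06), from 4.54, 1.61, 6.25 and 14.3 in control 1 to 4 to 79.1, 68.6, 45.2 and 37.1 in iKO 1 to 4. Its control values rested on 14 UMIs in all and its iKO values on 91, so the size of this change is uncertain. Oasl2 rose by 2.56 ± 0.29 (edgeR, adjusted p = 3.55e-06) and Oas3 by 2.06 ± 0.32 (0.000183). In Treg-like cells, which express Foxp3, 2 of 3 genes tested were called, where 1.05% of 7846 genes were so called. These were Oas1a (2.29 ± 0.24, edgeR adjusted p = 0.000815) and Oas3 (2.65 ± 0.41, 0.00928). The Treg-like count was 5 of 5 tested without iKO 4 or without control 1, and 1 of 5 without control 3. Genes called in either direction made up 1.71%, 4.48% and 0.298% of those tested in these fits. Oasl2 in Treg-like cells stood at 36.0, 36.7, 19.5 and 9.23 in iKO and at 14.8, 3.46, 7.87 and 6.52 in control. Its groups overlapped and its adjusted p was 0.0713 in edgeR.

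No member passed the count filter in B-like cells, so none was tested there, where 1.92% of 3441 genes were called higher. In the fits without iKO 3, control 1 or control 4, 1 member passed the filter and was called, where 2.25% to 2.60% of genes were called in either direction. The 6 genes gave 221 UMIs over the iKO and 68 over the control samples. Their summed level was 192, 270, 95.1 and 155 CPM in iKO 1 to 4 and 36.4, 38.4, 22.4 and 14.0 in control 1 to 4, and did not overlap. Lyz2, a myeloid gene, stood in B-like cells at 23.4% and 49.5% of its whole-sample level in iKO 1 and 2, and at 4.08% and 4.09% in iKO 3 and 4. The part of Lyz2-bearing RNA in the B-like values of iKO 1 and 2 was not tested.

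**Figure D3:**
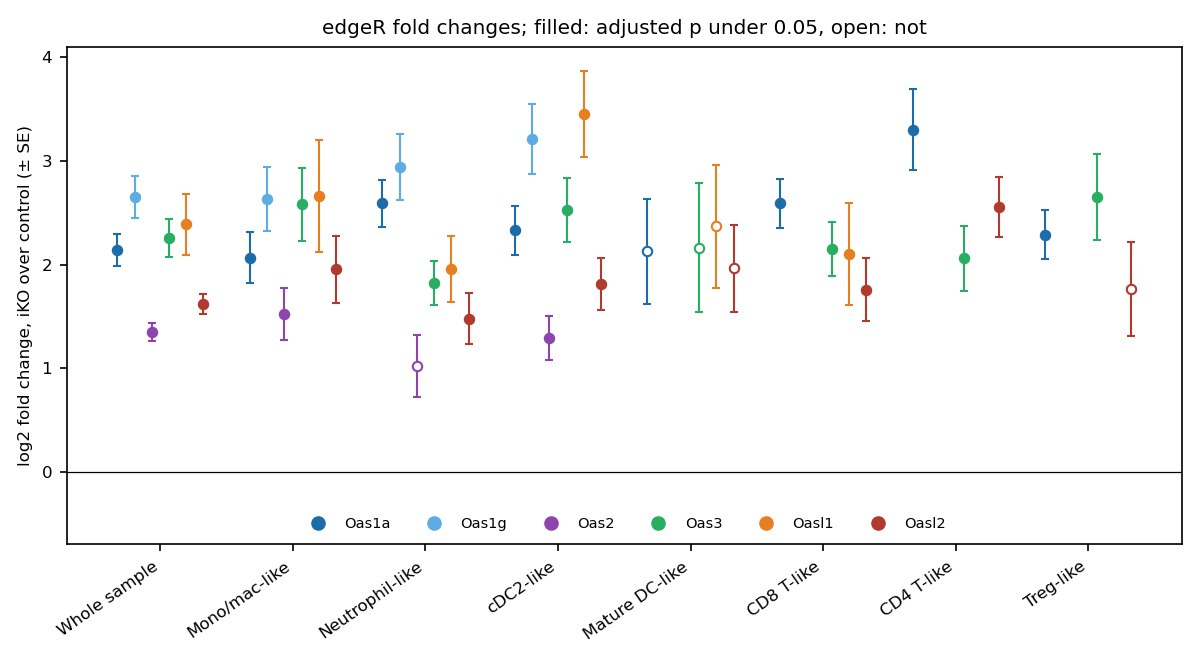
Log2 fold change of iKO over control (± SE, edgeR) for each member that passed the count filter, over all cells and in 7 classes. Filled points had an adjusted p under 0.05. All points lie above 0, from 1.02 for Oas2 in neutrophil-like cells to 3.45 for Oasl1 in cDC2-like cells.

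Whether the change differed between classes was asked in 1 model per class, with a term for the class by genotype interaction against monocyte/macrophage-like cells. No member was called in any of the 7 models by edgeR, where 0.00935% (neutrophil-like), 0.158% (cDC2-like), 0.0735% (mature DC-like), 0.618% (CD8 T-like), 0.406% (CD4 T-like), 1.05% (Treg-like) and 0.271% (B-like) of genes were called in either direction. At an unadjusted p under 0.05, 10 of the 42 gene and class pairs passed. These were 2 of 6 members in neutrophil-like (7.12% of all genes), 1 in cDC2-like (12.8%), 0 in mature DC-like (9.70%), 1 in CD8 T-like (15.9%), 3 in CD4 T-like (10.1%), 0 in Treg-like (13.9%) and 3 in B-like cells (8.69%). The smallest was Oas1a in CD4 T-like cells, whose change was 1.34 ± 0.41 larger on the log2 scale (edgeR, unadjusted p = 0.00317, adjusted p = 0.186). Differences in fold change between classes were thus not detectable at this depth with these samples.

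The sums could come from few or many cells, so the share of cells with at least 1 UMI of any member was counted after every cell was thinned to 2000 UMIs. Thinning left out 246 iKO and 407 control cells that were shallower. Over all cells the share was 42.3% to 49.9% in iKO and 14.5% to 17.7% in control. In monocyte/macrophage-like cells it was 67.1% ± 11.9 (SD, n = 4) in iKO and 23.4% ± 5.13 in control, and in neutrophil-like cells 61.4% ± 11.2 and 29.0% ± 4.19. In CD8 T-like cells it was 14.9% ± 1.63 and 3.21% ± 1.97, in CD4 T-like cells 30.6% ± 9.26 and 5.99% ± 2.88, and in B-like cells 22.6% ± 7.54 and 4.97% ± 2.27. The groups did not overlap in 7 of 8 classes (two-sided exact permutation test, p = 0.0286, adjusted over 8 classes 0.0327). In mature DC-like cells they did, at 19.0% to 55.9% against 4.71% to 23.9% (exact permutation p = 0.0857). Without thinning the share in monocyte/macrophage-like cells was 95.4% ± 2.23 in iKO, and in CD8 T-like cells 53.5% ± 6.71.

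Cells with UMIs of 2 or more members were also more frequent. In monocyte/macrophage-like cells they made up 25.6% to 46.7% in iKO and 2.24% to 6.82% in control at 2000 UMIs. In neutrophil-like cells the values were 33.8% ± 8.26 (SD, n = 4) and 8.11% ± 2.99, and in CD8 T-like cells 2.43% ± 0.90 and 0.183% ± 0.366. Oasl2 was the member found in most monocyte/macrophage-like cells, in 27.6% to 47.6% of iKO and 6.87% to 12.5% of control cells. In CD8 T-like cells Oas3 (5.27% to 8.33% in iKO) and Oas1a (2.94% to 8.57%) were found most often.

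**Figure D4:**
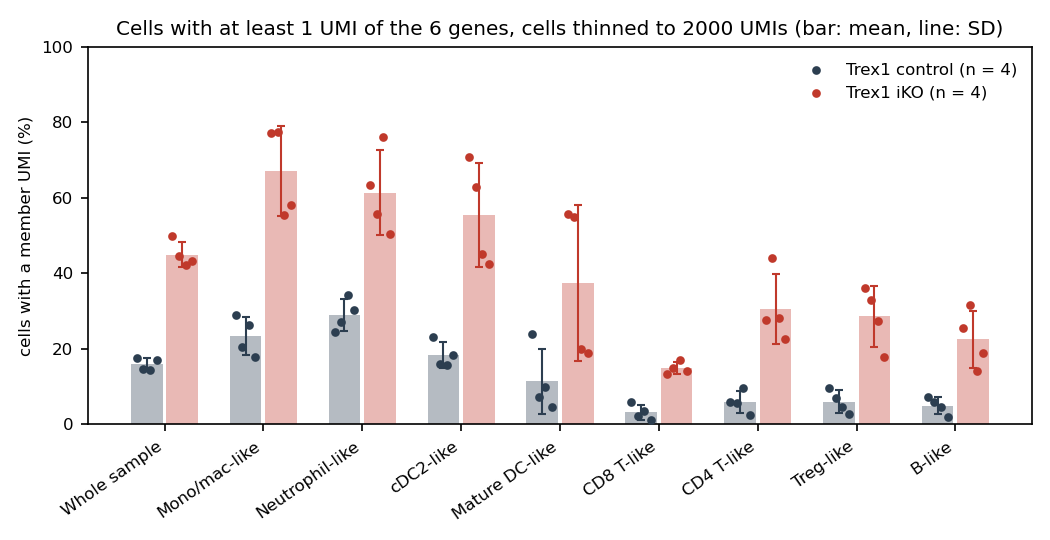
Percent of cells with at least 1 UMI of any of the 6 genes at 2000 UMIs per cell, by class. Points are samples, bars are means and lines are SD (n = 4 per genotype). The iKO points lie above the control points in each class except mature DC-like cells, where 2 iKO samples fall within the control range.

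Free RNA in droplet data can put myeloid UMIs into other cells, so Lyz2 and S100a8, a neutrophil gene, were read beside the members. At 2000 UMIs, Lyz2 was found in 20.0% to 27.9% of iKO and 29.3% to 39.7% of control CD8 T-like cells, and S100a8 in 7.33% to 9.29% and 19.0% to 27.6%. The free RNA of each sample was not measured. If all Lyz2 in CD8 T-like cells were free RNA with the makeup of the whole sample, the family in those cells would stand at a level that the observed one exceeded 4.03 to 10.8 times in iKO and 1.35 to 6.09 times in control. The same ratio in iKO was 9.92 to 17.2 in CD4 T-like, 3.74 to 13.5 in Treg-like and 1.15 to 9.12 in B-like cells. In control it was 2.12 to 7.18 in CD4 T-like, 1.29 to 3.7 in Treg-like and 1.53 to 4.62 in B-like cells. The 1.15 belonged to iKO 2, where B-like cells held the most Lyz2.

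**Figure D5:**
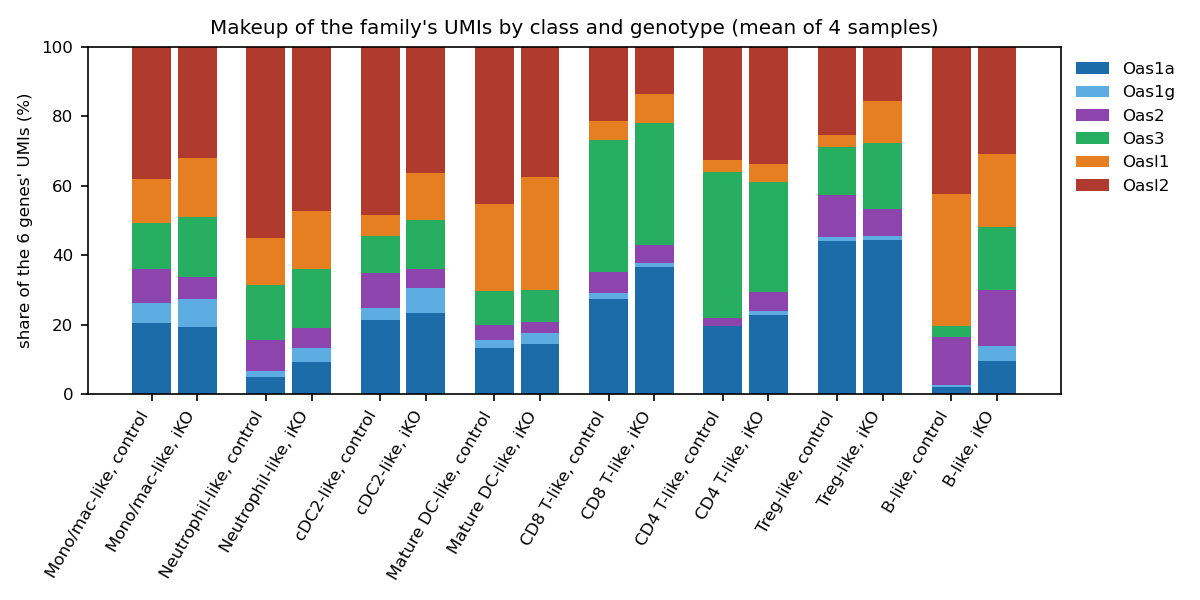
Share of each gene among the UMIs of the 6 genes, as the mean of 4 samples per class and genotype. Oasl2 holds 55.1% of control neutrophil-like UMIs and 13.7% of iKO CD8 T-like UMIs. The CD8 T-like bar in control rests on 219 UMIs, the CD4 T-like one on 107 and the B-like one on 68.

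Makeup by class followed the levels of single genes. In iKO neutrophil-like cells Oasl2 held 47.3% ± 4.25 (SD, n = 4) of family UMIs and Oas1a 9.25% ± 2.00. In CD8 T-like cells Oas1a held 36.7% ± 2.36 and Oas3 35.2% ± 1.36, and in Treg-like cells Oas1a held 44.3% ± 6.41. Oasl1 had its largest iKO share in mature DC-like cells, 32.6% ± 10.1. These values compare 3′ counts of molecules, which do not scale with transcript length.

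Of the remaining family genes, Oas1c gave 1658 UMIs over the iKO samples and 438 over the controls, where Oas1g gave 499. Oas1d, Oas1e, Oas1f and Oas1h gave 0 to 8 UMIs in either genotype. Oas1c was called higher in monocyte/macrophage-like cells (1.30 ± 0.25, edgeR adjusted p = 0.0161) and in the monocyte gate (1.76 ± 0.34, 0.00844), and not over all cells (0.76 ± 0.21, 0.101). It was also tested and not called in neutrophil-like, cDC2-like, CD8 T-like and Treg-like cells and in the C1q gate. In CD8 T-like cells Oas1c averaged 8.83 CPM in iKO and 7.18 in control (0.31 ± 0.21, edgeR adjusted p = 0.460), and Oas1g 0.909 and 0.319. In Treg-like cells Oas1c averaged 16.4 and 11.5 (0.42 ± 0.28, 0.503). Of Abce1, Pde12 and Akap7, genes of the oligoadenylate pathway outside the family, 0 of 3 were called over all cells (edgeR), and 1 of 3, Akap7, had an unadjusted p under 0.05. At least 2578 of the 13459 genes tested over all cells had such a p. In monocyte/macrophage-like cells 1 of these 3 fell, where 5.12% of 11823 genes were called lower. This was Akap7, whose longer product removes oligoadenylates, by 1.21 ± 0.22 on the log2 scale (edgeR, adjusted p = 0.0143). Akap7 also fell in the monocyte gate, by 0.96 ± 0.21 (edgeR, adjusted p = 0.0140), among 5.98% of the 9359 genes tested there with a lower level called.

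Other sensors of double-stranded RNA moved with the family. Of the 6 tested over all cells 5 rose, with a median log2 change of 1.16. They were Ifih1, which encodes MDA5 (1.57 ± 0.17, edgeR adjusted p = 0.00345), Dhx58, which encodes LGP2 (1.45 ± 0.13, 0.00135), Ddx58, which encodes RIG-I (1.27 ± 0.16, 0.00662), Eif2ak2, the kinase PKR (1.05 ± 0.11, 0.00315), and the editing enzyme Adar (0.73 ± 0.09, 0.00662). Mavs, the adaptor of MDA5 and RIG-I, averaged 7.05 CPM over the iKO samples and 6.78 over the controls and was not called (0.05 ± 0.14, 0.869). In CD8 T-like cells the same count was 5 of 6, in neutrophil-like cells 4 of 5, in CD4 T-like cells 3 of 5, in Treg-like cells 3 of 5, and in mature DC-like cells 0 of 5.

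Of 9 interferon signalling genes reported here, 3 rose over all cells and 0 fell. Irf7, the transcription factor that amplifies interferon production, rose by 2.73 ± 0.21 (edgeR, adjusted p = 0.000804), Stat2 by 1.24 ± 0.16 (0.00744) and Irf9 by 0.50 ± 0.07 (0.0104). The receptor genes Ifnar1 (-0.06 ± 0.12, 0.811) and Ifnar2 (-0.22 ± 0.17, 0.458) and the kinase gene Jak1 (-0.06 ± 0.10, 0.772) were not called over all cells. In B-like cells, where no Oas gene could be tested, Irf7 rose by 3.39 ± 0.21 (edgeR, adjusted p = 3.62e-09).

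Over 79 sample by class profiles of at least 20 cells, genes outside the family were ranked by Pearson correlation with the mean log2(CPM + 1) of the 6. The profiles share samples and pools, so no p is given. Among 7852 genes averaging 10 or more CPM, the highest were Isg15 (0.921), which encodes a ubiquitin-like modifier, Rsad2 (0.913), which encodes viperin, and Ifi204 (0.902). Ly6i, Ifit3, Irf7, Rnf34, Ifit2, Rtp4 and Slfn5 followed at 0.83 to 0.867. When values were centred within class and genotype, which left 72 profiles, the highest were Rtp4 (0.877), Zbp1 and Gbp7 (0.855 each), Ifi204 (0.845) and Ifi209 (0.828). Within the family, pairs correlated at 0.586 (Oas1a with Oasl1) to 0.864 (Oasl1 with Oasl2) over the 79 profiles. After centring the range was 0.328 for Oas1a with Oasl1 to 0.680 for Oas2 with Oas3.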

How the data were processed

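Leukocyte mRNA was counted by 10x 3' single-cell sequencing in 8 hashtagged samples, 4 per genotype, in 2 pools that coincide with genotype. The deposited matrices hold raw UMI counts made by the authors with Cell Ranger 7.1.0 on GRCm39, per the submitters' processing notes. Barcodes with under 300 genes or over 10% mitochondrial counts (1241) and cells with a doublet score over 0.25 (438, 1.95%) were left out. Cells were clustered with scanpy 1.11.5 and leidenalg 0.10.2 (2000 variable genes, 30 components, 20 neighbours, resolution 2). Clustering left out 998 genes, the members and a listed set of interferon-induced genes included. It gave 34 clusters, of which 4 (1294 cells) stayed unnamed. Class names are rebuilt from markers and are not the authors' own.

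Counts were summed per sample and class (at least 20 cells, 3 samples per genotype) and tested with edgeR 4.0.16 in R 4.3.3 by its quasi-likelihood test. The fits used TMM scaling, filterByExpr and Benjamini-Hochberg adjustment over all genes tested, with a threshold of 0.05. The scripts were tested on simulated data. Shares were compared by exact permutation tests (scipy 1.17.1). Total UMIs per sample ran from 17111065 to 96457227. UMI intervals and floors cover counting error only. Alternatives were DESeq2 1.42.0, RLE scaling, no filter, thinned cells, marker gates, all barcodes, the sample number as a block and leaving out each sample.

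The members, lists and tests were chosen with earlier results of these data known. The genes named are the 6 members, the listed family, oligoadenylate pathway, RNA sensor and signalling genes (some listed genes are not reported here), the 10 genes whose level was most like the family's, and cluster leaders and markers. In whole-sample profiles, deviations of same-numbered samples of the 2 genotypes correlated at 0.502, 0.239, 0.145 and 0.532. There iKO 2 and iKO 3 correlated more with another control number (0.581 and 0.347). The same-number values were -0.091 to 0.207 in monocyte/macrophage-like and 0.050 to 0.361 in CD8 T-like cells. The labels do not say what the number marks, and these values do not establish a pairing. The sample number used as a block is therefore not a known pairing. Promoters and loci are from RefSeq on GRCm38.p6, another build than the files', and were joined by gene symbol only.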

Additional observations from a re-analysis of the deposited data

Results flagged for a closer look

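Of 108 groups of 4 samples examined, 11 had a sample whose gap to the others exceeded Dixon's 95% critical value for its share of the group's range, and chance flags about 1 group in 20. In neutrophil-like cells Oasl2 stood at 274 CPM in iKO 4, against 435 to 452 in the other iKO samples. Oas3 stood there at 57.2 in control 3, against 39.5 to 40.9. In cDC2-like cells control 1 was high for both Oas1 genes, with Oas1a at 35.1 against 18.3 to 21.0 and Oas1g at 8.39 against 2.29 to 3.23. In B-like cells Oasl1 stood at 62.0 in iKO 2, against 27.2 to 27.9, on 14 UMIs. This was the sample in which Lyz2 in B-like cells was highest, and its part in the value was not tested.

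The others were groups in which 3 control samples had no UMI. In such a group any UMI in the remaining sample is flagged, so the chance rate above does not apply. In B-like cells control 3 held 4 UMIs of Oas1a (1.91 CPM), 1 of Oas1g (0.477) and 6 of Oas3 (2.86). Control 3 also held 4 UMIs of Oas2 in CD4 T-like cells (3.57 CPM) and 3 of Oas1g in CD8 T-like cells (1.27). Control 1 held 1 UMI of Oas1g in Treg-like cells (1.65 CPM).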

How the results depend on the processing

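No fold change of a member reversed under any alternative run, and all 6 members were called over all cells under each, although the number of genes called there was 340 with edgeR, 1381 with DESeq2, 708 with the replicate block, 719 with thinned cells and 108 to 488 with single samples left out (2.53%, 10.3%, 5.26%, 6.58% and 0.785% to 3.6% of genes tested, in either direction). With the replicate block, 1 member was called in mature DC-like cells (Oasl1, adjusted p = 0.014, where 0.403% of genes were called), Oasl2 was called in Treg-like cells (0.0306), and in the C1q gate Oas2 was lost (0.0527) and Oas3 gained (0.0446). The block changed no other call of a member.

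Without the low-count filter, 5 members were called in each of the B-like, CD4 T-like, mature DC-like and Treg-like classes and 6 in the C1q gate, where 1.29%, 1.83%, 1.25%, 2.70% and 0.927% of genes were called, and Oas2 was called in neutrophil-like cells (0.018). DESeq2 called 2 in mature DC-like cells (1.22% of genes) and 6 in the C1q gate (4.56%). Marker gates in place of clusters gave 3 in mature DC-like cells (1.59%). Thinning to 2000 UMIs left 0 members past the filter in Treg-like and in CD4 T-like cells, 1 in CD8 T-like and 3 in cDC2-like cells, all of which were called (3.72% and 5.04% of genes), and 5 were called in the C1q gate (1.42%). Leaving out single samples gave 0 to 1 called in B-like, 0 to 2 in mature DC-like, 1 to 5 in Treg-like and 0 to 6 in the C1q gate. In the fits that moved these counts, the share of genes called was 2.25% to 2.60%, 0.571%, 0.298% to 4.48% and 0.0306% to 2.29%.

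Differences in share of family UMIs (iKO minus control, percentage points) changed with the cells summed. In monocyte/macrophage-like cells that of Oas1a was -1.08, and those of the other members kept their direction. In CD8 T-like cells they were 9.18 for Oas1a, -0.52 for Oas1g, -1.08 for Oas2, -2.61 for Oas3 and -7.58 for Oasl2, on 219 control UMIs. The cause was not tested. The share of cells with a member UMI differed by 35.2 points in mature DC-like cells on all UMIs (exact permutation p = 0.0286) and by 10.8 in B-like cells at 1000 UMIs (exact permutation p = 0.114). Marker gates gave no value for neutrophil-like and cDC2-like cells. Oas1g did not pass the low-count filter in CD8 T-like, CD4 T-like, Treg-like or B-like cells.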

Other observations

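Some classes had too few control cells for a test, and their values stand here as measured. In cDC1-like cells, the cross-presenting dendritic cells marked by Xcr1 and Clec9a, the 6 genes summed to 135, 255, 106 and 79.1 CPM in iKO 1 to 4 and to 27.2 and 7.42 in controls 3 and 4. Oasl1 stood there at 18.6 to 77.5 in iKO and at 1.51 and 1.24 in those controls. In pDC-like cells, known as strong producers of interferon, the family summed to 271, 339, 82.9 and 76.2 in iKO and to 37.1 in control 3. In NK-like cells it summed to 154 and 143 in iKO 1 and 2 and to 25.2 and 21.5 in controls 1 and 3. Their iKO UMIs were mostly Oas1a (55) and Oas3 (44), with 1 UMI of Oas1g.

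A pair of T cell clusters stayed unnamed. In the cluster led by Dapl1, Igfbp4 and Lef1 the family summed to 83.2 to 222 CPM in iKO and 6.77 to 36.4 in control, without overlap. In the cluster led by Klra genes and Trdc it summed to 72.1 to 270 in iKO and 27.5 to 84.8 in control, and the groups overlapped.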
